A study of Mus musculus with 14 samples.

Results

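The p53 and Rb pathways were described through 10 genes, chosen by name: Trp53, Mdm2, Mdm4, Cdkn1a, Cdkn2a, Cdkn2b, Rb1, Ccnd1, Cdk4 and Myc. They are 10 of 21938 protein-coding genes of the annotation. ChIP-seq for H3K4me3, a histone mark of active promoters, was carried out in iMEFs, an immortalised line of mouse embryo fibroblasts. A marked site, here called a peak, counted for a gene if it reached to within 1 kb of one of its transcription start sites (TSSs).

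The cells carry floxed Ash2l alleles and an inducible Cre. An exon of the endogenous Ash2l is deleted, and the cells live on human ASH2L fused at its N-terminus to FKBP12 with the F36V exchange, delivered by a lentivirus. ASH2L belongs to the core of H3K4 methyltransferase complexes, and dTAG brings a ubiquitin ligase to the FKBP domain, which leads to degradation of the fusion protein. All groups share this background, including the untreated cells, and per the methods they stem from 1 clone. The 14 libraries comprise 12 H3K4me3 libraries, in 6 groups of 2 replicates (untreated, and dTAG for 30 min, 2 h, 4 h, 8 h or 16 h), and 2 inputs, 1 untreated and 1 after 16 h of dTAG. The 2 lists analysed here give positions of peaks found over all samples and of enhancers in control cells. They have 0 columns of values per sample, so no replicate error and no depth can be given, and times were not compared here, and a width is not a signal strength.

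p53 is a transcription factor that halts the cell cycle or kills cells under stress. MDM2 and MDM4 hold it in check, ARF (one product of Cdkn2a) restrains MDM2, and p21 (Cdkn1a) is a major target. INK4A (the other product of Cdkn2a) and INK4B (Cdkn2b) inhibit CDK4, the partner of cyclin D1 (Ccnd1), which phosphorylates RB1 and so frees E2F factors. MYC drives growth and, when excessive, induces ARF. Mouse fibroblasts commonly escape senescence by losing p53 or the Cdkn2a locus. How the iMEF line was immortalised is not given in the sources used here.

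All 10 genes had a peak within 1 kb of a TSS, against 59.1% of all protein-coding genes (12966 of 21938). For 9 of them a TSS lay inside a peak, against 55.5% of all genes, and Cdkn2b was the exception. No gene lacked peaks, so there was no locus of this set that the list left bare. The 10 genes held 17 TSS peaks of 250 to 4380 bp (median 1705 bp) and, with those elsewhere in the gene or within 1 kb of it, 28 peaks. In this set, 6 genes had at least 2 TSS peaks, against 23.8% of all genes. Most of these pairs were split by gaps of 84 to 234 bp, and with peaks merged within 1 kb only Cdkn2a and Rb1 had at least 2, against 3.87% of all genes. The 23.8% and 3.87% are shares of all genes, including those without a TSS peak. Over the 12966 genes with one, the number of unmerged TSS peaks had a median of 1 (quartiles 1 and 2), and over the 10 genes a median of 2. When TSSs within 500 bp of each other were joined into promoters, the genes had 27 promoters, of which 12 were overlapped by a peak, against 27.5% of all promoters of protein-coding genes. Of the 10 genes, 7 had at least 1 promoter without a peak, against 82.0% of all genes. This share and the 27.5% include genes with no TSS peak, all of whose promoters lack one. The 10 genes all had a peak, so they are not directly comparable with these shares.

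**Figure D1:**
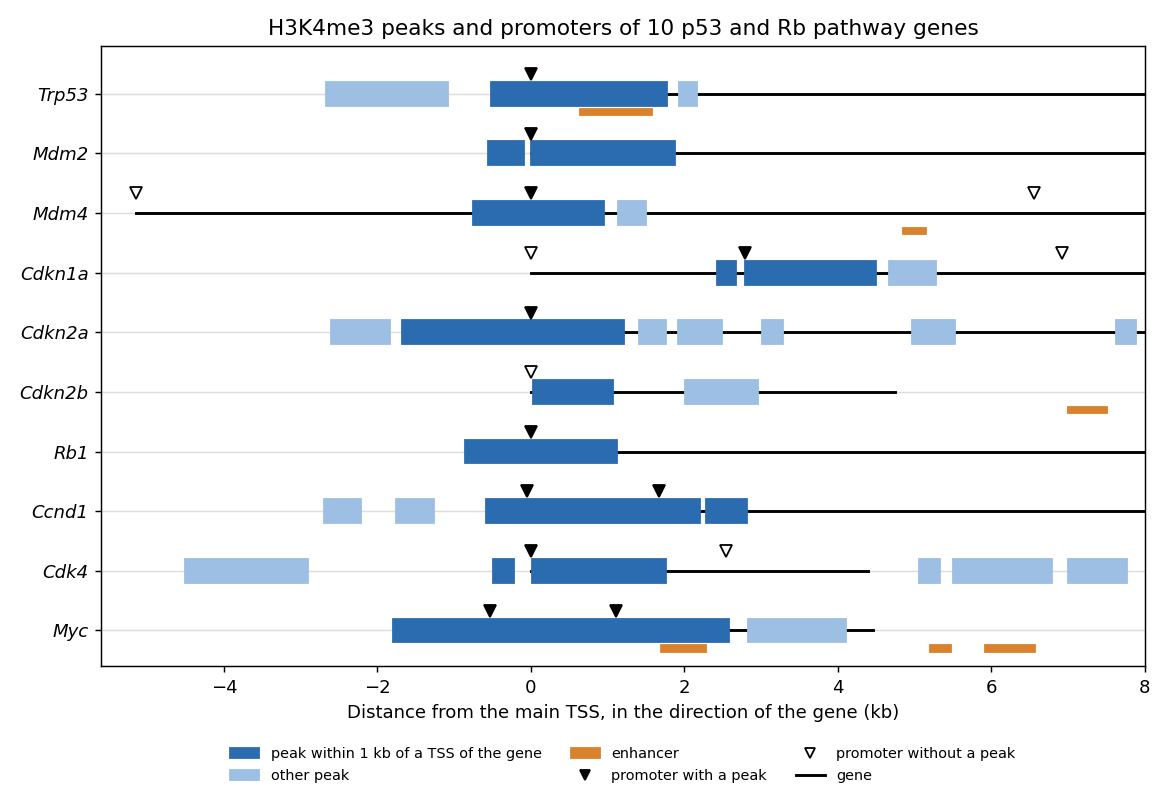
H3K4me3 peaks (dark and light blue bars), enhancers (orange bars) and promoters (triangles, filled where a peak overlaps) of the 10 genes, by distance in kb from the main TSS in the direction of the gene (black line). Myc has the longest bar, 4380 bp, the upstream promoter of Cdkn1a has an open triangle, and Cdkn2a has a row of short peaks inside the gene. Promoters and peaks further inside Mdm2, Mdm4, Trp53, Cdkn2a and Rb1 lie outside the plot.

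The promoter sequences show what the marked and unmarked starts of one gene look like. RefSeq (GRCm38.p6) gave 10 windows for 7 of the genes (Trp53, Mdm2, Mdm4, Cdkn1a, Cdkn2a, Cdkn2b and Cdk4). Each window runs from 250 bases before to 50 after a TSS, and 8 of the 10 were overlapped by a peak, against 39.7% of all 32851 windows. These 7 genes all had a TSS peak, so the shares are not directly comparable. At Cdkn2b and Cdk4 only 29 and 66 of the 300 bases lay in peaks. Capitals mark matches, on either strand, to the E-box CACGTG, the E2F motifs TTTCCCGC, TTTGGCGC, TTTCGCGC and TTTGCCGC, the GC box GGGCGG, the TATA box TATAAA and the consensus of the p53 half-site. A match is a run of letters, not a bound site. The 250 bases before the TSS are printed 5′ to 3′ in the direction of the gene. They are shown for 2 pairs of alternative promoters and for the most upstream start of 2 further genes.

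The first pair belongs to Cdkn1a on chromosome 17, plus strand, at chr17:29090729-29090978 for the upstream promoter without a peak and chr17:29093519-29093768 for the downstream promoter with one.
Cdkn1a upstream promoter, no peak: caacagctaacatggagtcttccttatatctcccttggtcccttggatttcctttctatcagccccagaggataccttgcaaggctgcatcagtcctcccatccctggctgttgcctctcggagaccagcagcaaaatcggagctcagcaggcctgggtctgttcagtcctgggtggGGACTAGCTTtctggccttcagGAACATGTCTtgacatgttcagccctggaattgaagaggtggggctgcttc
Cdkn1a downstream promoter, peak: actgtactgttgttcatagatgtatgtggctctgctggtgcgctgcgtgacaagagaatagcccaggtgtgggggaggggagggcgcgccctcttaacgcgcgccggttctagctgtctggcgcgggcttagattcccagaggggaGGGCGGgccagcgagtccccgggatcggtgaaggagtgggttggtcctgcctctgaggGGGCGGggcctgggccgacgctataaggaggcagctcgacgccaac
The upstream window held 2 p53 half-sites, at -73 to -64 and -51 to -42 from its TSS, a number that 118 of 32851 windows (0.359%) reached, and 8.36% held at least 1. The downstream window held none, but 2 GC boxes, a motif in 35.7% of all windows. The ratio of observed to expected CpGs was 0.0892 in the upstream and 0.786 in the downstream window. The median was 0.792 over windows with a peak and 0.214 over windows without one, so each promoter lay on the side of its own class.

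The second pair belongs to Cdkn2a on chromosome 4, minus strand, at chr4:89294620-89294869 for the Arf promoter (exon 1β) and chr4:89282193-89282442 for the Ink4a promoter (exon 1α).
Cdkn2a, Arf promoter, peak: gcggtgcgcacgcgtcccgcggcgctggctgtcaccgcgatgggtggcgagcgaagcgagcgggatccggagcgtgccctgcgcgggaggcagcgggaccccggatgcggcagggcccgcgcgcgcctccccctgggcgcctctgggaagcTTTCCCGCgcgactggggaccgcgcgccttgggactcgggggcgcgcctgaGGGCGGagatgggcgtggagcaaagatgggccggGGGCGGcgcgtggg
Cdkn2a, Ink4a promoter, peak: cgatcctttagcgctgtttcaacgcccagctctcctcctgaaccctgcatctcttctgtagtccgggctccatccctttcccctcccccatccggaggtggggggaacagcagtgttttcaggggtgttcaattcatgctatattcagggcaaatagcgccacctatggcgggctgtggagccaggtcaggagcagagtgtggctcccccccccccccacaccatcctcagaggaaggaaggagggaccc
Both windows lay fully inside peaks, with all 300 bases covered. The Arf window had a GC content of 77%, a CpG ratio of 1.04, 3 GC boxes and an E2F motif at -99 to -92, which 2.26% of all windows held. The Ink4a window had a GC content of 60.3%, a CpG ratio of 0.442 and 1 GC box, which lies beyond the printed bases.

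Windows at the most upstream start are shown for Cdk4, chr10:127063285-127063534, plus strand, and for Mdm2, chr10:117710759-117711008, minus strand. In both, this TSS fell between a pair of peaks. Joining had chained further starts to it, over 765 bp with 8 TSSs at Cdk4 and 737 bp with 7 TSSs at Mdm2. No separate windows were available for those other starts.
Cdk4 promoter: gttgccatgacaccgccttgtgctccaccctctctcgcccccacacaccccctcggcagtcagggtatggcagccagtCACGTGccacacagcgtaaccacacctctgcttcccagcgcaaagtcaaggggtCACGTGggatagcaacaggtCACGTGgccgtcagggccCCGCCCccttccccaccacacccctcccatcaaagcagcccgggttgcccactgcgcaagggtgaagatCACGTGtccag
Mdm2 promoter: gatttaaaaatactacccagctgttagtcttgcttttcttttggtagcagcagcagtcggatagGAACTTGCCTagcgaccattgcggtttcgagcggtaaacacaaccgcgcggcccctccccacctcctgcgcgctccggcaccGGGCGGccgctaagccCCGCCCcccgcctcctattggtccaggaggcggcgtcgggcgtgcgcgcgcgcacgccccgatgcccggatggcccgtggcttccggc
Cdk4 held 4 E-boxes, the motif that MYC and its partner MAX recognise, between -172 and -6. At least 1 E-box was present in 7.15% of windows, and at least 4 in 8 of 32851 (0.0244%). None of these E-boxes had a base inside a peak. The cut-offs of 4 E-boxes here and 2 half-sites at Cdkn1a equal the counts seen in these windows, so those shares are descriptions only. Mdm2 held 1 p53 half-site at -186 to -177, inside the smaller of its peaks, and 2 GC boxes, and its CpG ratio was 1.12. Of the windows not printed, Trp53 held a p53 half-site at -75 to -66, an E-box at 10 to 15 and a TATA motif at -248 to -243. Over the 10 windows, 2 held an E-box, 1 an E2F motif, 6 a GC box, 1 a TATA motif (13.6% of all windows) and 3 a p53 half-site.

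To describe the p53 arm, p53 itself and its 2 regulators were examined first. Trp53 (ENSMUSG00000059552.13, chr11:69580359-69591873) had 1 TSS peak of 2302 bp, from 523 bp upstream to 1778 bp downstream of its main TSS. It covered the promoter of 5 transcripts, 4 of them coding. The internal promoter of a non-coding transcript, 8336 bp further on, had no peak, and the nearest was 6170 bp away. The same peak was within 1 kb of a TSS of Wrap53, the gene that starts on the other strand and overlaps Trp53 in antisense, so the mark cannot be assigned to one of the pair. A further peak of 1581 bp lay on the Wrap53 side and a 236 bp peak lay in an intron of Trp53, 1931 bp from the TSS.

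Mdm2 encodes the ubiquitin ligase of p53 and is itself a p53 target (ENSMUSG00000020184.15, chr10:117688875-117710758). Its 1881 bp peak began 1 base downstream of the main TSS and covered 6 TSSs inside the first part of the gene, while a 464 bp peak ended 96 bp upstream. The gap of 96 bp held the main TSS. A non-coding start within the gene, 19238 bp downstream, had no peak within 17357 bp. Mdm4 encodes a p53 inhibitor related to MDM2 (ENSMUSG00000054387.13, chr1:132959484-133030561), and it had the most promoters of the set, 6. Only the main one, with 7 TSSs and 8 transcripts, had a peak, of 1710 bp. The upstream coding start, 5145 bp before it, had none, with the nearest peak 2381 bp away, and the other 4 were non-coding starts inside the gene at least 5052 bp from any peak. In the RefSeq windows of Mdm4, the CpG ratio was 0.489 at the marked and 0.306 at the unmarked start.

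Cdkn1a (p21, ENSMUSG00000023067.14, chr17:29090976-29100727) is a CDK inhibitor and showed mark at 1 of 3 promoters. A peak of 1705 bp began 1 base before the middle promoter, which serves 2 coding transcripts and lies 2790 bp from the upstream one. A peak of 250 bp preceded it, at a gap of 111 bp, and one of 615 bp followed in the intron. The upstream promoter, the one whose window holds the pair of p53 half-sites, was 2428 bp from the nearest peak. The third promoter, 6921 bp downstream, was 1636 bp from the nearest peak.

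Cdkn2a (ENSMUSG00000044303.6, chr4:89274471-89294653) had both of its promoters inside peaks, and 7 peaks in the gene or within 1 kb, a number that 0.451% of all genes reached (99 of 21938). The Arf promoter lay in a peak of 2899 bp, from 1681 bp upstream to 1217 bp downstream of the TSS. The Ink4a promoter, 12461 bp further on, lay in a peak of 810 bp. Between them were 5 intronic peaks of 270 to 582 bp, of which the outermost began 1406 and 7621 bp from the Arf TSS, and a 766 bp peak lay upstream of Arf. Cdkn2b (ENSMUSG00000073802.5, chr4:89306299-89311039) has 1 promoter and had the narrowest leading peak of the set, 1040 bp. This peak ran inside the gene from 28 to 1067 bp past the TSS, and an intronic peak of 949 bp followed.

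From the Ink4a peak to the Cdkn2b promoter there were 10 peaks over 29170 bp, 29.2% of which was inside peaks (8507 bases). Outside this block there was no peak for 141919 bp on the side of Mtap and for 377014 bp on the other side, up to the promoter of Dmrta1. In the stretch of 548103 bp bounded by these next peaks lay 35 enhancers, with 27 in the longer gap, 6 in the shorter one and 2 between the genes. This is 63.9 enhancers per Mb, whereas windows of 1 Mb on chromosome 4 held 12.2 on average. The stretch was bounded around these genes, and the spread over windows is not given here. Cdkn2a and Cdkn2b each had 15 enhancers in the gene or within 100 kb, and 97.7% of protein-coding genes had fewer.

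**Figure D2:**
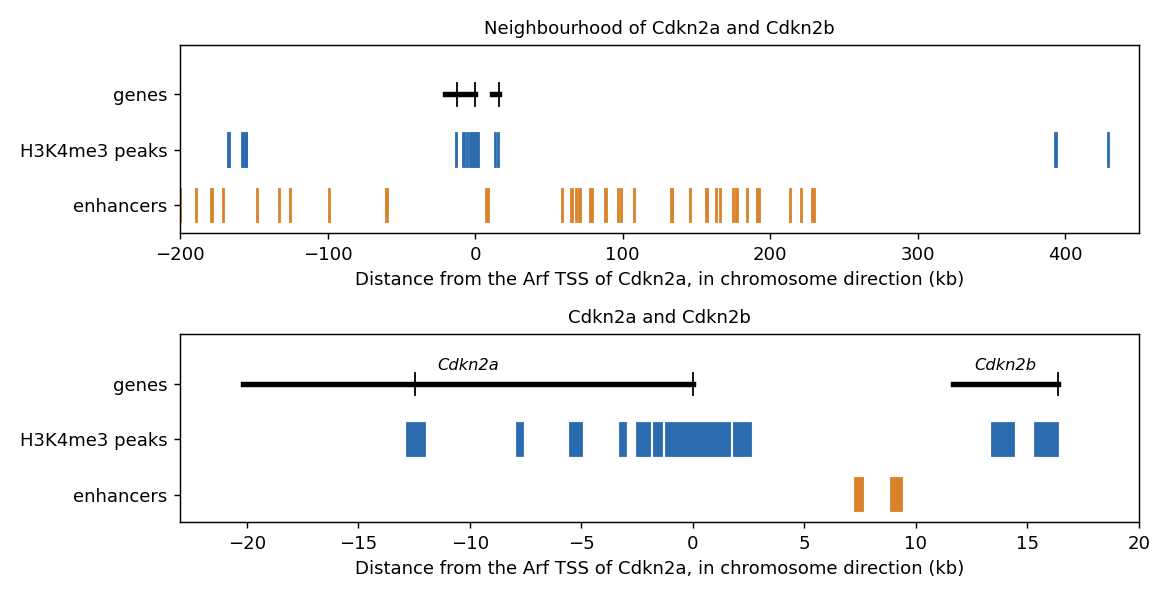
Genes (black, with ticks at promoters), H3K4me3 peaks (blue) and enhancers (orange) around Cdkn2a and Cdkn2b, by distance in kb from the Arf TSS. The upper panel shows the block of 10 peaks with 377014 bp free of peaks to its right, where 27 enhancers lie, and the lower panel shows peaks at the Arf, Ink4a and Cdkn2b starts. Marks in the upper panel have a minimum drawn width.

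In the Rb arm, Rb1 (ENSMUSG00000022105.6, chr14:73183673-73325822), which encodes the pocket protein that binds E2F, had a 1980 bp peak from 855 bp upstream to 1124 bp downstream of the main TSS. Of its 5 promoters, 1 was overlapped by a peak. By the 1 kb rule it had 2 more TSS peaks, of 1056 and 699 bp, through a non-coding start that lies 86036 bp inside the gene and 191 bp from the nearer peak. The wider one was also within 1 kb of a TSS of Lpar6, a receptor gene nested in an intron of Rb1, and the narrower one overlapped an enhancer. With coding transcripts alone, or with RefSeq TSSs, Rb1 had 1 TSS peak. The GC content was 64.4% in the main peak, and 45.0% and 41.1% in the others.

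Ccnd1 encodes cyclin D1 (ENSMUSG00000070348.5, chr7:144929931-144939925). A peak of 2783 bp covered both of its promoters, from 581 bp upstream to 2201 bp downstream of the main TSS, and a 525 bp peak followed after a gap of 84 bp. Peaks of 501 and 481 bp lay upstream, between 1259 and 2694 bp from the TSS. Cdk4, the kinase (ENSMUSG00000006728.12, chr10:127063534-127067920), had a 1748 bp peak that began 18 bp after the first TSS and covered 7 TSSs. A 273 bp peak ended 217 bp upstream, and the 234 bp between them held the first TSS and the 4 E-boxes. A non-coding start 2542 bp downstream lay 777 bp from the nearest peak. A 275 bp peak lay within 1 kb of the 3′ end of Cdk4 and also within 1 kb of a TSS of Tspan31. Beyond that, the next peaks were near TSSs of March9, 2904 bp upstream, and Tspan31, 1116 bp downstream.

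Myc (ENSMUSG00000022346.15, chr15:61985391-61990374) had the widest peak of the set. Its 4380 bp ran from 1800 bp upstream to 2579 bp downstream of the main TSS, covered both promoters with all 6 TSSs, and overlapped an enhancer of 585 bp in the gene. A second peak of 1274 bp covered the 3′ part of the gene, and 44.0% of it was coding sequence. The main peaks of Mdm4, Cdkn1a and Myc were also within 1 kb of a TSS of an overlapping or nearby gene of unknown role (Gm29257, AC167363.2 and Gm37947). Beyond 1 kb of the gene the list held no peak for 208097 bp upstream and 47236 bp downstream.

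The widths were next set beside those of other genes. The widest TSS peak of the 10 genes had a median of 1930.5 bp (range 1040 to 4380 bp), and that of the 12966 protein-coding genes with a peak had a median of 1255 bp (quartiles 908 and 1710 bp). Of the 10 genes, 9 were above this median and 7 above the upper quartile. Myc was wider than 99.6% of genes with a peak, Cdkn2a than 96.4%, Ccnd1 than 95.8% and Trp53 than 90.3%. Rb1 (83.5%), Mdm2 (80.7%), Cdk4 (76.3%), Mdm4 (75.0%) and Cdkn1a (74.7%) followed, and Cdkn2b came last with 34.2%. When peaks within 1 kb of each other were merged, the median rose to 2893 bp against 1628 bp for all genes, Myc (5907 bp), Cdkn2a (5887 bp) and Ccnd1 (5505 bp) led, Cdkn2b grew to 2928 bp (88.6% of genes narrower), and Rb1 was the narrowest with 1980 bp (65.1%). The GC content of the 17 TSS peaks had a median of 54.2%, and that of all 25357 peaks on the chromosomes 54.8%. The CpG ratios were 0.643 and 0.565. All peaks include 7770 whose centre lies over 1 kb from any TSS, so the sets are not directly comparable.

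**Figure D3:**
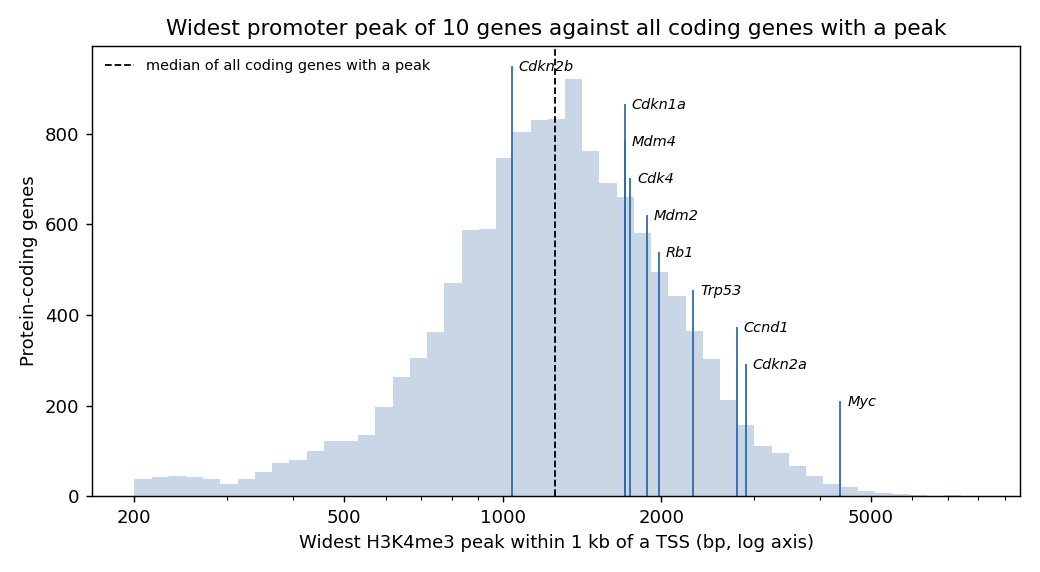
Histogram of the widest H3K4me3 peak within 1 kb of a TSS, in bp on a log axis, over 12966 protein-coding genes, with the 10 genes as labelled blue lines of arbitrary height and the median of all genes (1255 bp) dashed. Only Cdkn2b, at 1040 bp, lies to the left of the median, and Myc, at 4380 bp, lies in the right tail.

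Relatives of the 10 genes differed among themselves. Among the p53 family, Trp63 had no TSS peak but 7 enhancers within the gene, and Trp73 had a peak of 586 bp, compared with 2302 bp at Trp53. The widest peak of the pocket protein genes measured 1980 bp at Rb1, 1607 bp at Rbl1 and 980 bp at Rbl2. All D-type cyclin genes had wide peaks, of 2783 bp (Ccnd1), 2560 bp (Ccnd2) and 3075 bp (Ccnd3). Cdk6, the other kinase of D-type cyclins, had a peak of 4208 bp and 10 enhancers in the gene, compared with 1748 bp and 0 at Cdk4, a gene of 4387 bp. Counts of enhancers in a gene were not adjusted for its length. Of the Myc family, Mycn had a peak of only 269 bp that overlapped none of its promoters, and Mycl one of 1806 bp. The remaining INK4 genes, Cdkn2c and Cdkn2d, had peaks of 1826 and 693 bp. Cdkn1b (p27) had one of 3377 bp, and Cdkn1c (p57) had none at 3 promoters.

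Other genes of these pathways were counted in 7 lists, and 68 of their 75 genes had a TSS peak, to be read against the 59.1% of all genes. All 20 p53 targets, all 12 genes of the Rb family and E2F list, all 6 of the G1 cyclins and kinases and all 9 of the Myc family and partners had one. Their widest peaks were at Bbc3 (4040 bp), which encodes the pro-apoptotic protein PUMA, E2f3 (2957 bp), Cdk6 (4208 bp) and Mxi1 (3698 bp), a MAX partner. Of the p53 family and regulators 12 of 13 had a peak, Trp63 being the one without, and Usp7, a deubiquitinase of p53 and MDM2, had the widest (2765 bp). Among the CDK inhibitors it was 3 of 4. Of the secreted senescence genes 6 of 11 had one (54.5%), which is near the share of all genes. In 1 of these 6 the widest TSS peak measured only 212 bp, close to the 200 bp minimum of the list. The interleukin gene Il6, the chemokine genes Cxcl1 and Cxcl2 and the collagenase and stromelysin genes Mmp13 and Mmp3 had no TSS peak, and Cxcl5 (1339 bp) had the widest. Over all protein-coding genes with a peak, the widest one had a median of 1255 bp. The p53 family and regulators (1200.5 bp) and the secreted senescence genes (1077 bp) lay below it. The p53 targets (1499.5 bp) and the Rb family and E2F list (1555.5 bp) lay above it. So did the Myc family and partners (1725 bp), the CDK inhibitors (1826 bp) and the G1 cyclins and kinases (2546 bp). As a check of the label, all 10 fibroblast markers had a TSS peak. Of 13 listed markers of other cell types, 12 were in the annotation and 2 had a TSS peak, Tubb3 (1044 bp) and Epcam (724 bp).

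To describe the enhancers, those in each gene or within 100 kb were listed. All 10 genes had at least 1, against 75.5% of all genes, and 4 (Trp53, Mdm4, Rb1 and Myc) had at least 1 inside the gene, against 25.0%. The only enhancer inside Trp53 and the only one inside Myc each had a TSS within 1 kb and overlapped a peak. The number per gene ranged from 2 to 15 with a median of 6.5, and over all genes the median was 3 (quartiles 1 and 6). Cdkn2a and Cdkn2b had 15 each, of which 14 were shared. Mdm2 had 9, Rb1 and Myc 7 each, Ccnd1 6, Cdkn1a and Cdk4 4 each, Mdm4 3 and Trp53 2. Counted once, these were 58 enhancers with a median width of 493 bp, compared with 405 bp over all 32965. Of the 58, 8 overlapped a peak (13.8%, against 7.52% of all enhancers), and 8 had a TSS of some gene within 1 kb (13.8%, against 8.99%).

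Their place relative to the genes differed. The 6 enhancers of Ccnd1 all lay upstream, with centres 15983 to 91145 bp from the main TSS, and Ccnd1 was the nearest coding gene to each. Myc had the reverse layout, with 1 in the gene, 6 downstream and 0 upstream, the farthest centred 93481 bp from the main TSS, and Myc was the nearest coding gene to all 7. For Cdkn2b, 12 of 15 were nearest to it, and 11 lay upstream at 42257 bp or more. Mdm2 was nearest to 3 of its 9, all upstream, and the 4 downstream were nearer to Cpm. The 4 within 100 kb of Cdk4 were all nearer to Ctdsp2 and began 73022 bp from the gene, so within 50 kb Cdk4 had 0. The 4 upstream of Rb1 were nearer to Itm2b. The 2 enhancers of Trp53 were 1 of 945 bp inside the promoter peak and 1 nearer to Dnah2.

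**Figure D4:**
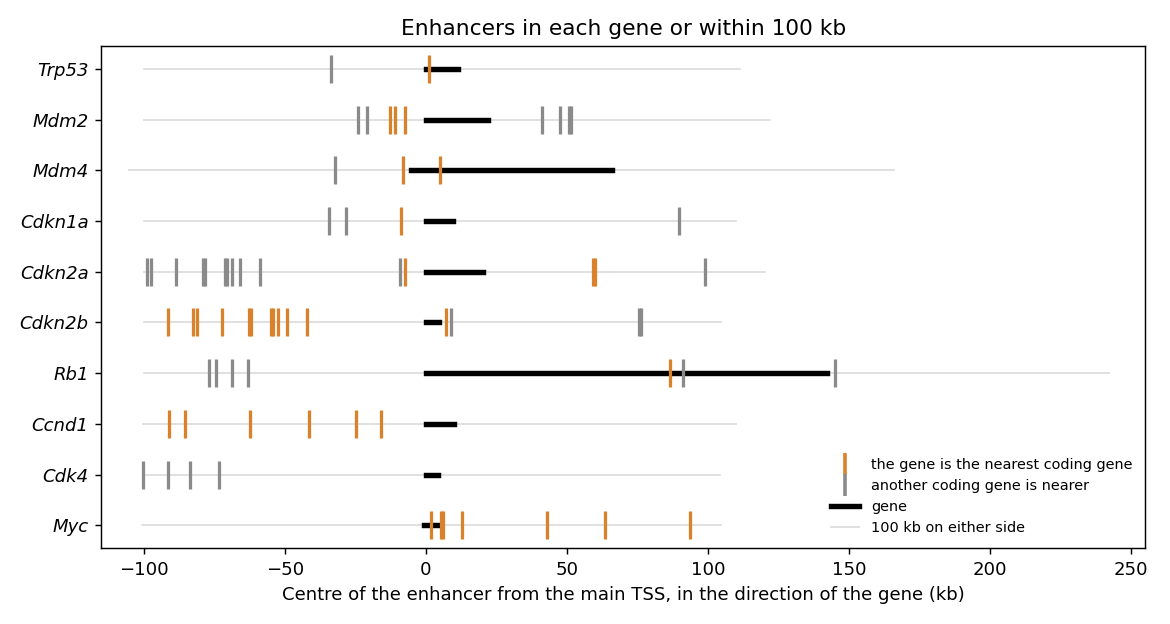
Enhancers (ticks) in each of the 10 genes or within 100 kb of it (grey line), by the distance in kb of their centre from the main TSS in the direction of the gene (black bar). Orange ticks, for which the gene is the nearest coding gene, are all upstream of Ccnd1 and none is upstream of Myc, and the 4 ticks of Cdk4 are all grey.

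Finally, TSS-distal peaks, whose centre lies over 1 kb from any TSS, were counted in or within 1 Mb of each gene. The median was 16 over the 10 genes and 8 over all genes (quartiles 4 and 12). Trp53 had 33, Mdm2 24, Cdkn2a, Cdkn2b and Cdk4 22 each, and these 5 exceeded the upper quartile. Mdm4 had 10, Myc 8, Ccnd1 7, Cdkn1a 5 and Rb1 3. The order of the first 5 depended on the distance. Of peaks over 3 kb from a TSS, Mdm2 had 16, Cdkn2a and Cdkn2b 13 each, and Trp53 and Cdk4 11 each (upper quartile of all genes 7). At Cdkn2a, 5 of its 22 lay in the gene itself or within 1 kb. The windows of Cdkn2a and Cdkn2b overlap almost fully, so their counts are nearly the same peaks. Chromosomes differed in this measure. The median over genes was 10 on chromosome 10, which holds Mdm2 and Cdk4, 11 on chromosome 11 (Trp53), 8 on chromosome 4 (Cdkn2a and Cdkn2b), 14 on chromosome 15 (Myc), 6 on chromosome 14 (Rb1), 8 on chromosome 7 (Ccnd1), 8 on chromosome 17 (Cdkn1a) and 7 on chromosome 1 (Mdm4). Myc, Rb1, Ccnd1 and Cdkn1a thus had fewer than the median gene of their chromosome, and Trp53, Mdm2, Mdm4, Cdk4, Cdkn2a and Cdkn2b more.

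**Figure D5:**
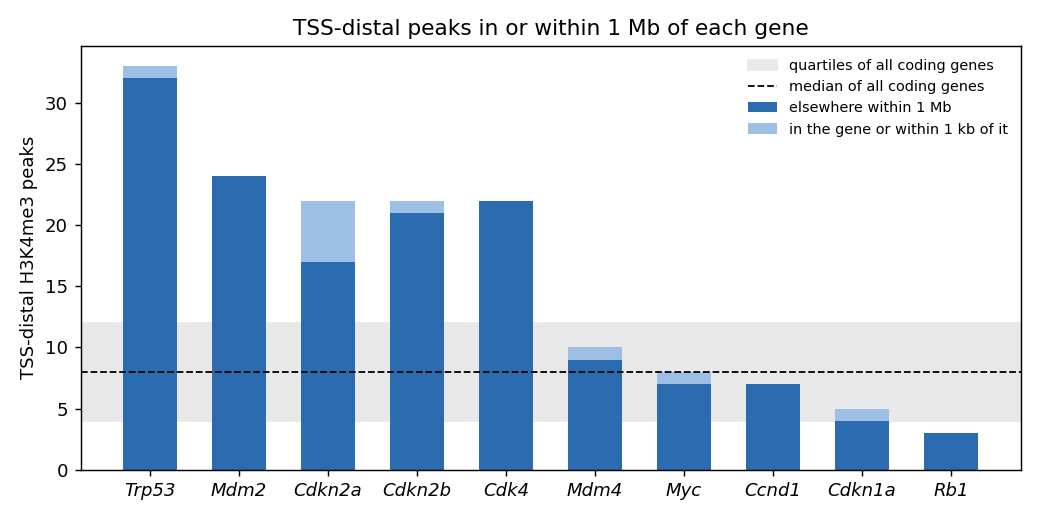
Number of TSS-distal H3K4me3 peaks in or within 1 Mb of each of the 10 genes (bars, the lighter part being in the gene or within 1 kb of it), with the median (8, dashed) and quartiles (4 and 12, grey band) of all protein-coding genes. The bars of Trp53, Mdm2, Cdkn2a, Cdkn2b and Cdk4 rise above the band, and that of Rb1 (3) stays below it.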

How the data were processed

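H3K4me3 ChIP-seq was performed in 12 libraries (6 groups of 2 replicates), with 2 inputs. Per the methods, trimming used Trim Galore, alignment to mm10 used BWA and filtering used samtools, replicates were merged with Picard, and the authors called narrow peaks with MACS. The deposited peak list joins the peaks of all samples, and the deposited enhancer list was defined by the authors in control cells, away from TSSs, by open chromatin with H3K27ac and H3K4me1. Both hold positions only, with no score and 0 columns of values per sample, so depth is unknown, no test was made, and a peak of any time point counts as present. Whether peaks were called on merged replicates is not stated, and both this and a narrow caller's splitting of broad domains can affect the number and width of peaks.

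Peak starts were taken to count from 0, since the smallest difference of end and start was 200, in 1394 of 25431 peaks, and enhancer starts to count from 1. All positions here count from 1. Regions were compared with GRCm38.p6, and on 0 of 21 chromosomes did one pass the end. TSSs were 5′ ends of GENCODE M21 transcripts (132629 positions). The authors cite another release, so TSSs can differ. Here 8.99% of the listed enhancers had a TSS within 1 kb, a distance the authors excluded. The main TSS is the most upstream one of the principal coding transcripts. At Cdkn1a this is the unmarked upstream start. An enhancer or TSS-distal peak was counted by any overlap with the gene extended by 100 kb or 1 Mb. Promoter sequences came from RefSeq (GRCm38.p6). Python 3.11.15, NumPy 2.4.6, pandas 2.3.3 and Matplotlib 3.10.9 were used, and interval functions were tested on simulated data. Genes named from a list were those without a peak and the one with the widest peak. The genes, lists and settings were chosen with earlier results of these data known. Alternatives were other TSS sets, windows, joins and distances, wide peaks only and merged peaks.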

Additional observations from a re-analysis of the deposited data

How the results depend on the processing

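That all 10 genes had a TSS peak held with coding transcripts, RefSeq TSSs, windows of 500 bp and 2 kb, peak centres, peaks of at least 500 bp and merged peaks. The number of TSS peaks was 17, was between 12 and 16 under 6 of these settings, and was 26 with the 2 kb window. The number of genes with at least 2 TSS peaks, 6, was recomputed under these settings after seeing the data. It fell to 3 with peaks of at least 500 bp and to 2 with merged peaks, and was between 4 and 9 otherwise. Merging peaks within 1 kb moved the median of the widest peak from 1930.5 to 2893 bp. Joining TSSs within 100 bp split the promoters into 36, of which 20 had a peak, in place of 12 of 27. The enhancers numbered 34 within 50 kb and 128 within 200 kb, in place of 58, and without those near a TSS 50. The median of TSS-distal peaks was 8 when they had to lie over 3 kb from a TSS (4 over all genes) and 9.5 within 500 kb (4 over all genes), and in both cases 5 genes stayed above the upper quartile. For single genes, 32 of 100 alternative counts differed by over 1.5 times from the value given, and 1 was 0 (enhancers of Cdk4 within 50 kb). No paired analysis was possible because neither list gives values for single libraries, and for the same reason no replicate could be left out. The list without scores limits what can be said of weak peaks, since the confidence of each peak is unknown.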
